A study of Homo sapiens with 14 samples.

Results

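Protein-folding chaperones of the cytosol and the mitochondrion were followed in RS4;11 cells, a human acute lymphoblastic leukemia (ALL) line of precursor B cells, before and after exposure to dexamethasone, a synthetic glucocorticoid. The members were probe sets annotated with a single gene whose symbol is TCP1 or CCT2 to CCT8, or begins with HSPA, HSPB, HSPD, HSPE, HSPH, DNAJ, PFDN or BAG, without the endoplasmic reticulum (ER) chaperones HSPA5, DNAJB9, DNAJB11 and DNAJC3. This rule took 104 of the 19070 probe sets with a single gene, which belong to 67 of 11963 genes, and it used no expression value. TCP1, HSPA8, HSPA1A, HSPA1B and PFDN6 were not analysed here, because every probe set that names them is annotated with several genes, and 14 probe sets of these families were left out for that reason. The rule also took HSPBAP1, which is not itself a chaperone, and several J proteins that are known to sit in the ER or its membrane.

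All 14 arrays hold RNA of cells starved of hormone in charcoal-dextran treated serum. In the group Dex 8 h (5 arrays) and the group Dex 24 h (5 arrays) the cells were given 10 nM dexamethasone for 8 or 24 h, and in the group Untreated (4 arrays) they were given none. No array holds cells kept for 8 or 24 h without dexamethasone, so the drug and the time in culture cannot be told apart. The cells are 1 line, and the sources do not say whether replicates were separate cultures, so each p-value reflects only how far these arrays spread. In such bulk RNA, fewer cells of a kind and less RNA per cell cannot be told apart.

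Chaperones hold unfolded chains and release them in cycles driven by ATP. HSP70 proteins bind short greasy stretches, J proteins bring them clients and trigger ATP hydrolysis, and nucleotide exchange factors such as the BAG proteins reset them, while HSP60 with its HSP10 lid and the cytosolic CCT ring enclose a whole chain in a chamber. Many of these genes answer to heat shock factor 1, and the glucocorticoid receptor itself is folded by HSP70 and HSP90 before it can bind hormone.

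The values are log2 expression values, so a difference of 1 is a 2-fold change. The median over all probe sets was between 6.03 and 6.05 on the untreated arrays, between 6.03 and 6.09 at 8 h, and between 6.07 and 6.11 at 24 h. Of the marker lists, 8 B-lineage genes had a median level of 9.46 untreated, 9.27 at 8 h and 9.89 at 24 h. Medians of the T and NK cell, monocyte and erythroid lists lay between 3.51 and 4.88 in every group, and in the T and NK list the highest gene averaged 8.62 untreated, 8.39 at 8 h and 8.77 at 24 h. The sample descriptions carry a date, with a letter where a date recurs. Arrays that share both are called a run here (5 runs, 4 of them with all groups). Runs 1 and 2 share day 1, while runs 3, 4 and 5 fell on days 2, 3 and 4. Values below are listed by replicate number, and replicates 1 to 3 of each group are runs 1 to 3. Run 4 holds Untreated replicate 4 and replicate 5 of both dexamethasone groups. Run 5 holds replicate 4 of both dexamethasone groups and no untreated array.

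After 24 h of dexamethasone, 26 of the 67 chaperone genes were lower and 9 were higher than in untreated cells at an adjusted p below 0.05 (limma, adjusted over all genes), and 32 did not pass. Over all 11963 genes, 20.9% were called lower and 19.5% higher in that comparison, so the chaperones' shares were 38.8% lower and 13.4% higher. The median log2 fold change was -0.14 over the chaperones and -0.02 over all genes. The 3 chaperones that fell by 2-fold or more were HSPA9, HSPE1 and DNAJC9, and DNAJB2 was the 1 that rose as much. In 23 genes every 24 h array lay below every untreated array, against 18.1% of all genes, and in 9 every 24 h array lay above, against 17.2% of all genes.

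At 8 h, 15 chaperones were lower and 5 higher, which is 22.4% and 7.46% of them beside 11% and 8.69% of all genes. Their median log2 fold change was -0.06. In 12 chaperones all 8 h arrays lay below all untreated ones, against 10.4% of all genes, and in 5 all lay above, against 7.86%. Between 8 and 24 h, a comparison that holds no untreated array, 19 chaperones were lower at 24 h and 5 higher, which is 28.4% and 7.46% of them beside 13.7% and 14.6% of all genes. Of these, 17 had no overlap downwards, against 10.9% of all genes, and 4 upwards, against 11.5%. Within day 1 alone, 27 chaperones were lower and 13 higher at 24 h, beside 19% and 18.2% of all genes. At 8 h of day 1, 8 were lower and 10 higher, beside 10.6% and 9.41%, and 24 were lower and 7 higher at 24 h against 8 h, beside 13.5% and 14.5%. Within days 2 to 4, 33 were lower and 11 higher at 24 h, beside 21.8% and 19.8%. At 8 h of those days 26 were lower and 5 higher, beside 12.4% and 9.78%, and 21 were lower and 4 higher at 24 h against 8 h, beside 15.1% and 14.6%. As shares of the chaperones, those lower at 8 h were 11.9% within day 1 and 38.8% within days 2 to 4. The counts of higher genes were small enough for single arrays to move them. The count at 8 h was 3 without Untreated replicate 1, and the count between 8 and 24 h was 3 without Dex 24 h replicate 3, without Dex 24 h replicate 5 or without Dex 8 h replicate 2.

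**Figure D1:**
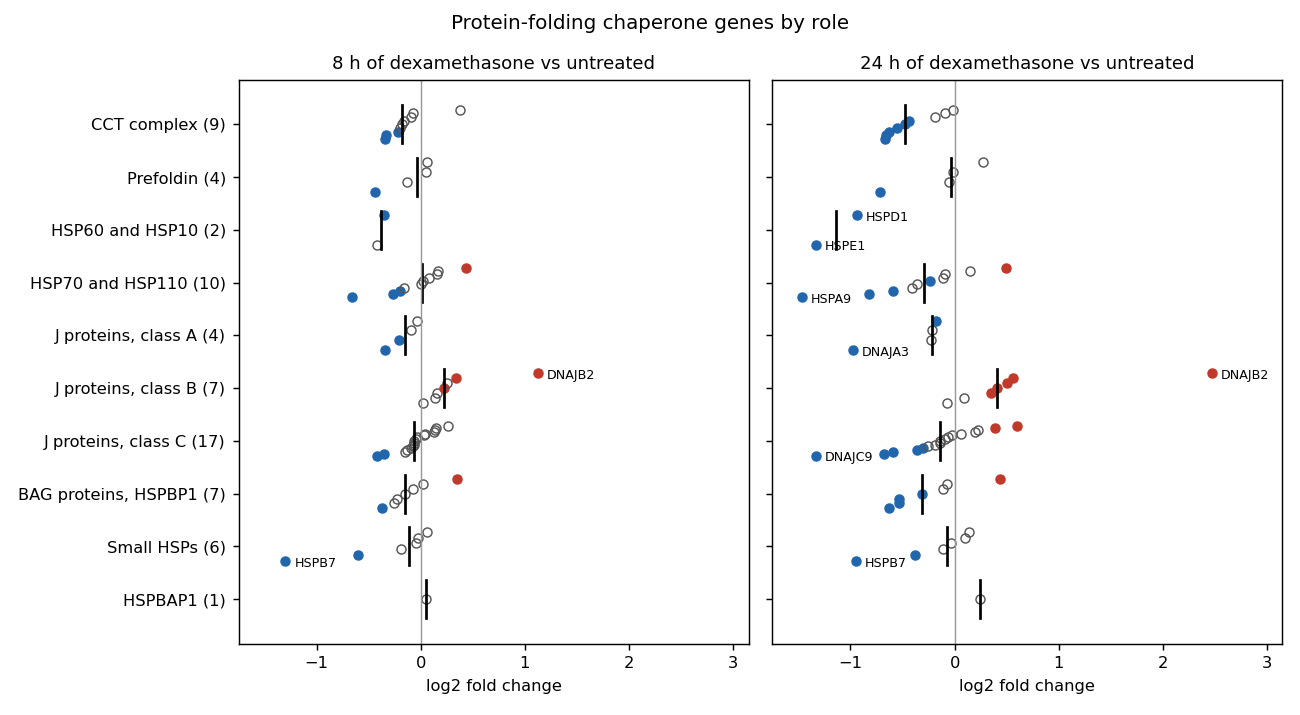
Log2 fold change of each of the 67 chaperone genes after 8 h (left) and 24 h (right) of dexamethasone against untreated cells, 1 point per gene, grouped by role with the number of genes in brackets. Filled points passed the test (blue lower, red higher), open points did not, and the black bar is the median of the role. CCT subunits, HSP60 and HSP10 lie left of 0 at 24 h, while 5 of 7 class B J proteins lie to the right as filled points.

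HSPA9, HSPD1 and HSPE1 of the mitochondrial folding machine were lower at 24 h in each of the 4 runs with an untreated array. HSPA9 encodes mortalin, the HSP70 of the mitochondrial matrix that pulls imported chains through the inner membrane and folds them. Its log2 values were 10.22, 10.15, 10.11 and 10.25 untreated, 9.48, 9.44, 9.53, 9.57 and 9.60 at 8 h, and 8.59, 8.56, 8.82, 8.79 and 8.82 at 24 h. No array of one group overlapped another group, and every run with all groups stepped down at both times. The log2 fold change was -1.47 ± 0.07 at 24 h (SE, adjusted p = 5.5e-11) and -0.66 ± 0.07 at 8 h (adjusted p = 3.1e-06). A further -0.81 ± 0.06 separated the Dex 24 h arrays and the Dex 8 h arrays (adjusted p = 1.2e-07). Each of its 3 probe sets gave the same picture, with log2 fold changes at 24 h of -1.51, -1.41 and -1.48.

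HSPD1 (HSP60) and HSPE1 (HSP10) are the chamber and the lid of the matrix chaperonin. HSPD1 stood at 12.78, 12.73, 13.01 and 13.17 untreated, at 12.66, 12.50, 12.47, 12.50 and 12.71 at 8 h, and at 12.02, 11.92, 11.94, 11.95 and 12.10 at 24 h. All 24 h arrays were below all 8 h arrays, and these below all untreated ones. HSPE1 had 11.55, 11.58, 11.78 and 11.59 untreated, 11.44, 11.62, 10.99, 10.93 and 11.06 at 8 h, and 10.66, 10.63, 10.17, 9.86 and 10.12 at 24 h. At 8 h the replicates 1 and 2 of HSPE1, both from day 1, lay within or close to the untreated range and the other 3 well below it, while the 24 h arrays lay below all others. At 24 h HSPE1 fell to 0.396 of the untreated level (log2 fold change -1.34 ± 0.17, adjusted p = 5.4e-06) and HSPD1 to 0.522 (-0.94 ± 0.09, adjusted p = 2.2e-07). The 8 h difference passed the test for HSPD1 (-0.36 ± 0.09, adjusted p = 0.0081) and not for HSPE1 (0.75 of the untreated level, adjusted p = 0.098).

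These 2 genes are neighbours on chromosome 2, transcribed away from each other from start sites 105 bases apart, so their windows of 250 bases before to 50 after the start share 204 bases. The HSPE1 window, chr2:197500129-197500428 on the plus strand of GRCh38.p14, is shown because it covers both start sites, and that of HSPA9, chr5:138575352-138575651 on the minus strand, because this gene fell furthest. Both come from RefSeq, and the capitals mark the E-box CACGTG, a palindrome that is the same on both strands and is read by basic helix-loop-helix factors.
HSPE1: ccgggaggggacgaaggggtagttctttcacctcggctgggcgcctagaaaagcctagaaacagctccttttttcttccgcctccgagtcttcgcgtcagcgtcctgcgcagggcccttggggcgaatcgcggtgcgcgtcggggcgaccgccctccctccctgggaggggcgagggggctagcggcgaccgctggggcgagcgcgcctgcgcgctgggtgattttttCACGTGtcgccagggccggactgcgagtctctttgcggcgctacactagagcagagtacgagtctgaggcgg
HSPA9: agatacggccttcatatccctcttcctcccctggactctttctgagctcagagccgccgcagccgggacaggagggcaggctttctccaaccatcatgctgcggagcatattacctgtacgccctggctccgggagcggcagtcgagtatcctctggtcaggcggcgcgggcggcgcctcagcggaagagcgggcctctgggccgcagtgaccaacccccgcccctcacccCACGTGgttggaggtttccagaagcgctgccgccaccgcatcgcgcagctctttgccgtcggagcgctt
The E-box begins 22 bases before the HSPE1 start, where the HSPD1 window holds the same site, and 19 bases before the HSPA9 start. A RefSeq window was found for 59 of the 67 chaperones, and 7 of them held the hexamer (DNAJC8, DNAJC12, DNAJC16, HSPA9, HSPBAP1, HSPD1 and HSPE1), which is 11.9% beside 7.43% of 27305 promoter windows of the same length, 1 per gene. A match describes the letters only. HSPD1 and HSPE1 share 1 site that is counted for both. Of the 7 genes, 5 were lower at 24 h, DNAJC16 was higher, and HSPBAP1 did not pass. At 24 h 38.8% of the chaperones and 20.9% of all genes were lower, and 13.4% and 19.5% were higher. Whether the hexamer has a part in these changes was not tested. The canonical glucocorticoid response element, AGAACA followed by 3 free bases and its reverse complement, was in none of the 59 windows and in 1 of all windows (0.0037%), both strands being searched. Its first unit AGAACA, which lies inside the full element, was in 6 on either strand (10.2%, beside 14.9% of all).

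Other mitochondrial J proteins are members too, and DNAJA3, DNAJC11 and DNAJC15, described here, are not a full list of them. DNAJC28, described below with class C, was higher at 24 h. DNAJA3, the J protein of the matrix, stood at 9.35, 9.30, 9.57 and 9.70 untreated, at 9.12, 8.93, 9.11, 9.20 and 9.30 at 8 h, and at 8.47, 8.49, 8.44, 8.56 and 8.56 at 24 h. At 8 h its range met the untreated range, and at 24 h it lay clear of both (log2 fold change against untreated -0.98 ± 0.09, adjusted p = 1.1e-07). GRPEL1, outside the rule, is the exchange factor of mortalin, and it was lower at 24 h by a log2 fold change of -0.90 ± 0.12 (adjusted p = 1.4e-05) and at 8 h by -0.54 ± 0.12 (adjusted p = 0.0041, and -0.22 with adjusted p = 0.085 within day 1). Of the 4 class A J proteins, DNAJA2, a cytosolic partner of HSP70, was the other one called lower at 24 h (-0.18 ± 0.06, adjusted p = 0.023), a call lost without Dex 24 h replicate 2 (0.060), without Untreated replicate 3 (0.073) or 4 (0.087), and within day 1 (-0.12, adjusted p = 0.32). DNAJC11, a J protein of the mitochondrial membranes, was lower at 24 h (-0.36 ± 0.06, adjusted p = 1.7e-04), with 7.66, 7.57, 7.66 and 7.69 untreated, 7.59, 7.54, 7.56, 7.56 and 7.52 at 8 h, and 7.35, 7.32, 7.19, 7.42 and 7.12 at 24 h. Its 8 h arrays could not be separated from the untreated ones by the test (adjusted p = 0.41). DNAJC15, a J protein of the inner membrane named after its values were seen, did not pass at 24 h (-0.25 ± 0.10, adjusted p = 0.060) or at 8 h (-0.13 ± 0.10, adjusted p = 0.47).

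In a list of 9 further genes of mitochondrial folding and quality control, 7 were lower at 24 h and none higher, and 5 were lower at 8 h. The lower shares were 77.8% and 55.6%, beside 20.9% and 11% of all genes. CLPX and YME1L1 did not pass at 24 h (log2 fold change 0.01 each). TRAP1, the HSP90 of the matrix, had 9.73, 9.71, 9.57 and 9.70 untreated, 9.10, 8.96, 9.01, 9.19 and 9.30 at 8 h, and 8.29, 8.29, 8.03, 8.07 and 8.04 at 24 h. Its groups did not overlap, and its log2 fold change was -1.53 ± 0.08 at 24 h (adjusted p = 2.7e-10). TIMM44, which tethers mortalin to the import channel, was at -1.11 ± 0.12 (adjusted p = 1.6e-06), and the protease HTRA2 at -0.64 ± 0.07 (adjusted p = 2.9e-06).

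**Figure D2:**
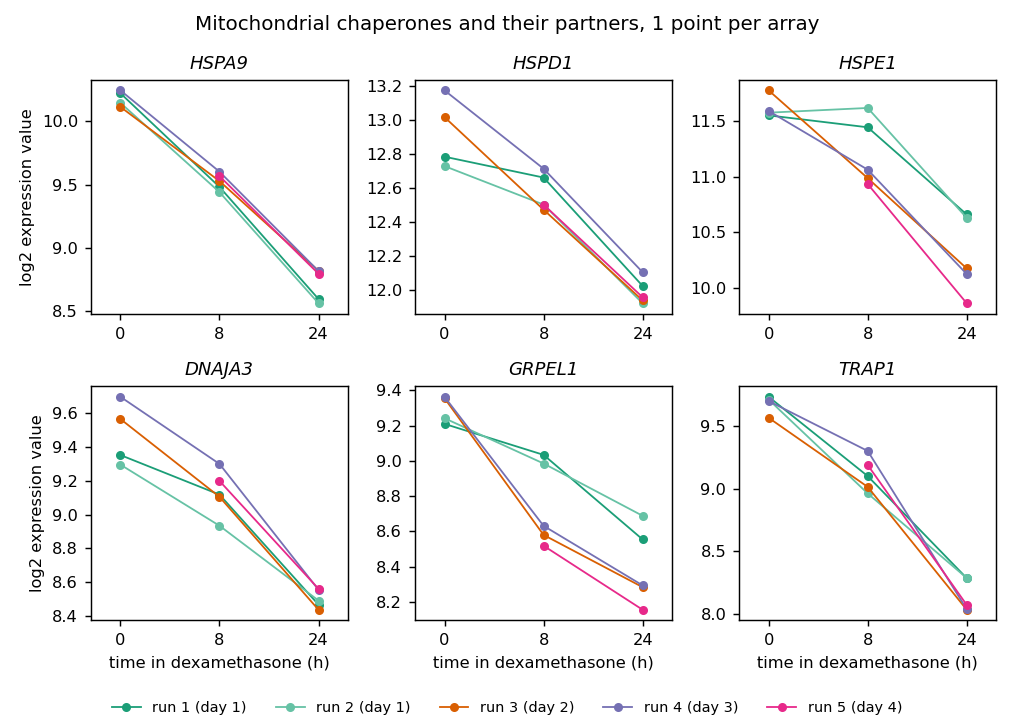
Log2 expression value of mitochondrial chaperones and partners at 0, 8 and 24 h of dexamethasone, 1 point per array, joined within a run. HSPA9 and TRAP1 step down in every run, and HSPE1 and GRPEL1 at 8 h separate day 1 (green) and the later days.

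RNA of most measured subunits of CCT, the cytosolic ring chaperonin that folds actin and tubulin, was lower. Of the 9 genes, 6 were lower at 24 h (CCT2, CCT3, CCT4, CCT5, CCT6A and CCT7), 3 at 8 h (CCT2, CCT5 and CCT7) and none higher in any comparison, with a median log2 fold change of -0.48 at 24 h, -0.18 at 8 h and -0.33 for 24 h against 8 h. The lower shares were 66.7% at 24 h and 33.3% at 8 h, beside 20.9% and 11% of all genes. The 6 had log2 fold changes between -0.67 (CCT2) and -0.44 (CCT4) at 24 h. CCT2 had 11.47, 11.39, 11.45 and 11.60 untreated, 11.37, 11.18, 10.97, 10.99 and 11.19 at 8 h, and 10.84, 10.81, 10.76, 10.75 and 10.89 at 24 h. Its groups did not overlap, although the highest 8 h array lay just under the lowest untreated one. Its log2 fold change was -0.67 ± 0.08 at 24 h (adjusted p = 2.9e-06) and -0.34 ± 0.08 at 8 h (adjusted p = 0.0054).

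CCT5 stood at 11.87, 11.87, 12.17 and 12.22 untreated, at 11.77, 11.78, 11.55, 11.63 and 11.77 at 8 h, and at 11.33, 11.38, 11.42, 11.35 and 11.40 at 24 h. Untreated arrays form a pair near 11.87 from day 1 and a higher pair from days 2 and 3, whereas the 24 h arrays of all days lay close together. CCT6A had the same layout, with 9.67, 9.70, 10.24 and 10.24 untreated, 9.73, 9.76, 9.79, 9.70 and 9.93 at 8 h, and 9.32, 9.23, 9.37, 9.32 and 9.44 at 24 h. Calls made at 8 h for CCT2 and CCT5 were lost within day 1 (log2 fold change -0.15, adjusted p = 0.27, and -0.09, adjusted p = 0.39). That of CCT7 (-0.22 ± 0.07, adjusted p = 0.042) was lost without any 1 of Dex 24 h replicates 1, 4 and 5 (adjusted p 0.052 each), Dex 8 h replicates 1 to 4 (0.068 to 0.087) and Untreated replicates 3 and 4 (0.13 and 0.14), and within day 1 (-0.14, adjusted p = 0.23).

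As a mean of its 2 probe sets CCT8 did not pass at 24 h (-0.19 ± 0.08, adjusted p = 0.070), and a fit that blocks on the run called it lower (-0.20, adjusted p = 0.014). The probe sets disagreed. Tested alone, the one with a mean of 12.67 in untreated cells fell by 0.30 on the log2 scale at 24 h (adjusted p = 3.0e-04), and the one with a mean of 4.36 did not pass (-0.08, adjusted p = 0.73). CCT6B, a form of CCT6 best known from testis, had 5.88, 5.65, 5.56 and 6.63 untreated, 6.12, 6.0, 6.42, 6.63 and 6.36 at 8 h, and 5.78, 5.70, 5.97, 5.89 and 5.84 at 24 h. It passed only for 24 h against 8 h (-0.47 ± 0.17, adjusted p = 0.045), and this call was lost without any 1 of the 5 Dex 24 h arrays (0.054 to 0.090), of Dex 8 h replicates 3 to 5 (0.082 to 0.12) or without Untreated replicate 1 (0.054). CCT8L2, a CCT8-like gene, stayed between 3.79 and 4.48 on all arrays with no difference called.

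**Figure D3:**
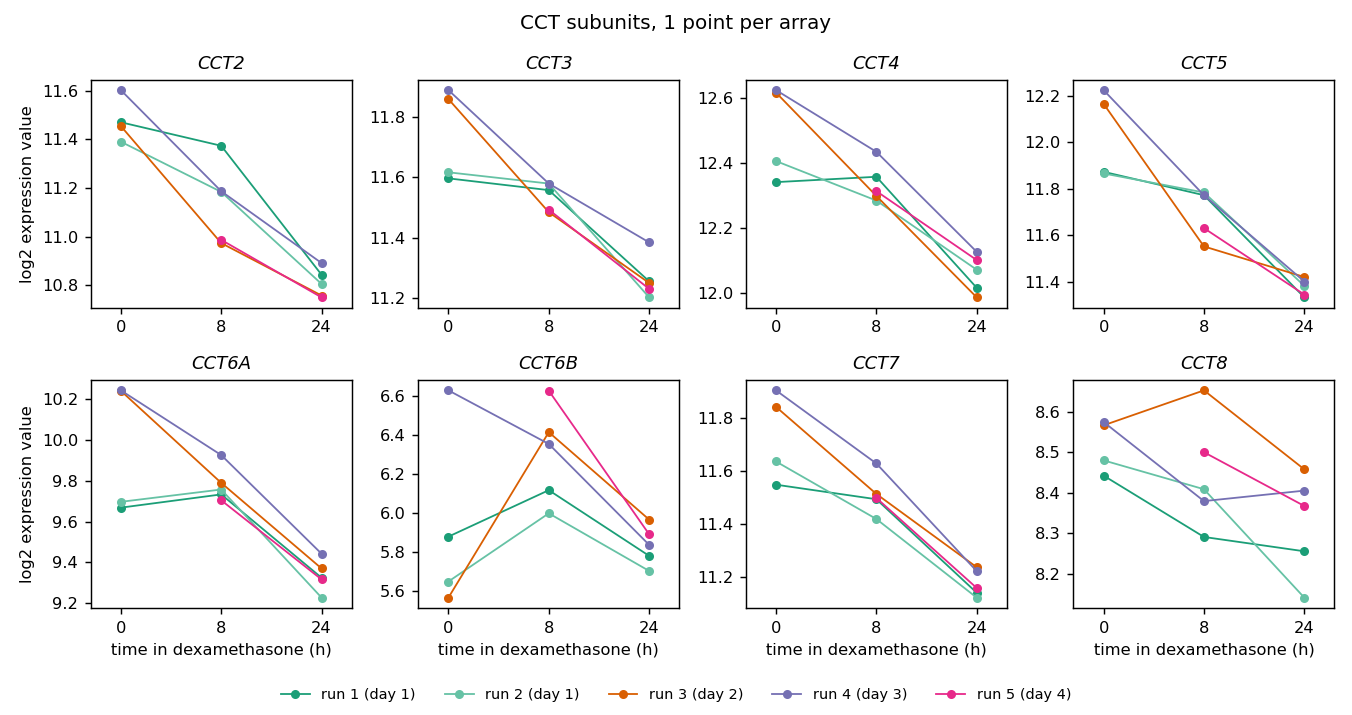
Log2 expression value of 8 CCT genes at 0, 8 and 24 h of dexamethasone, 1 point per array, joined within a run. In the 6 subunits called lower at 24 h, all 24 h arrays lie under all untreated arrays, while CCT6B and CCT8 overlap.

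Prefoldin hands new actin and tubulin chains to CCT. Of its 4 member subunits (25% lower at 24 h, beside 20.9% of all genes) only PFDN2 passed, in all 3 comparisons. It had 10.57, 10.72, 10.65 and 10.65 untreated, 10.31, 10.36, 10.11, 10.10 and 10.15 at 8 h, and 10.12, 10.02, 9.88, 9.87 and 9.79 at 24 h. Untreated arrays were clear of both dexamethasone groups (log2 fold change -0.71 ± 0.08 at 24 h, adjusted p = 1.1e-06). The log2 fold changes at 24 h were -0.01 ± 0.11 for PFDN1 and -0.06 ± 0.07 for PFDN4, and 0.27 ± 0.12 for PFDN5 (adjusted p = 0.94, 0.57 and 0.082). PFDN5 passed as higher when the fit blocked on the run (adjusted p = 6.3e-04), as it did in the arrays of day 1 alone (0.29, adjusted p = 0.037) and in those of days 2 to 4 (0.32, adjusted p = 0.0048). VBP1, the prefoldin subunit whose symbol the rule does not take, was lower at 24 h (-0.41 ± 0.10, adjusted p = 0.0021).

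Among the 10 genes of the HSP70 and HSP110 families, 4 were lower at 24 h (HSPA9, HSPA14, HSPA12A and HSPA2) and 1 was higher (HSPA1L). The shares are 40% and 10%, beside 20.9% and 19.5% of all genes. HSPA14 is the HSP70 that works on chains at the ribosome together with DNAJC2. It stood at 10.09, 10.14, 10.20 and 10.32 untreated, at 10.13, 9.91, 9.87, 9.76 and 9.95 at 8 h, and at 9.50, 9.46, 9.26, 9.31 and 9.31 at 24 h. All 24 h arrays lay below the others (log2 fold change -0.82 ± 0.08 against untreated, adjusted p = 2.8e-07), whereas the 8 h call (-0.26 ± 0.08, adjusted p = 0.024) was lost without Dex 8 h replicate 3 (0.057) or 4 (0.066) and without Untreated replicate 3 (0.054) or 4 (0.083), and within day 1 (-0.10, adjusted p = 0.51). HSPA2, a form best known from testis and named after its values were seen, had a log2 fold change of -0.59 ± 0.16 at 24 h (adjusted p = 0.0056). DNAJC2, named after its values were seen, was also lower at 24 h (-0.67 ± 0.13, adjusted p = 4.6e-04).

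HSPA1L, a close copy of the stress-induced HSPA1A and HSPA1B, was higher at 24 h (0.49 ± 0.10, adjusted p = 5.7e-04) and at 8 h (0.43 ± 0.10, adjusted p = 0.0041). Its values were 4.80, 4.69, 4.93 and 5.20 untreated, 5.45, 5.32, 5.35, 5.48 and 5.12 at 8 h, and 5.31, 5.43, 5.29, 5.43 and 5.53 at 24 h. All lie below the array medians, and hybridisation of RNA from its near-identical copies to this probe set was not tested. Within days 2 to 4 the 8 h difference did not pass (0.25, adjusted p = 0.18). HSPA12A, a distant HSP70 relative with values between 3.75 and 4.08, was lower by 0.24 at 24 h on the log2 scale (adjusted p = 0.0015), and this call was lost with its brightest probe set alone (-0.16, adjusted p = 0.14).

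Among the class B J proteins, relatives of DNAJB1, 5 of 7 were higher at 24 h, 3 were higher at 8 h and none was lower, with a median log2 fold change of 0.41 at 24 h. The higher shares were 71.4% at 24 h and 42.9% at 8 h, beside 19.5% and 8.69% of all genes. The 8 h count was 1 without Untreated replicate 1, and between 2 and 4 without any other single array, being 2 without any 1 of the Dex 24 h arrays, of Dex 8 h replicates 3 to 5 or without Untreated replicate 2. DNAJB2 binds ubiquitin as well as HSP70 and passes clients on to the proteasome, and is best known from neurons. Its values were 5.39, 5.61, 6.36 and 5.82 untreated, 6.62, 6.79, 7.25, 6.96 and 6.98 at 8 h, and 8.04, 8.31, 8.31, 8.43 and 8.25 at 24 h. All 3 groups lay apart, and every run stepped up at each time. DNAJB2 was 5.56-fold higher at 24 h (log2 fold change 2.47 ± 0.16, adjusted p = 3.0e-09) and 2.18-fold higher at 8 h (1.12 ± 0.16, adjusted p = 9.1e-05), and its level at 24 h exceeded that at 8 h by a log2 fold change of 1.35 ± 0.15 (adjusted p = 5.3e-06).

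DNAJB12 and DNAJB14 are paralogous J proteins of the ER membrane that face the cytosol. DNAJB12 had 6.70, 6.79, 6.78 and 6.86 untreated, 7.01, 6.97, 6.96, 7.05 and 7.04 at 8 h, and 7.06, 7.11, 7.32, 7.22 and 7.26 at 24 h. Its groups did not overlap (0.41 ± 0.06 at 24 h, adjusted p = 4.3e-05, and 0.22 ± 0.06 at 8 h, adjusted p = 0.017), and the 8 h call was lost without Untreated replicate 1 (adjusted p = 0.061) and within days 2 to 4 (0.20, adjusted p = 0.056). Its 4 probe sets all passed at 24 h, with log2 fold changes of 0.35, 0.74, 0.28 and 0.28. DNAJB14 had 8.47, 8.45, 8.62 and 8.63 untreated, 8.60, 8.49, 8.92, 8.95 and 9.0 at 8 h, and 9.09, 8.99, 9.22, 8.98 and 9.19 at 24 h, where all arrays exceeded the untreated ones (0.56 ± 0.10, adjusted p = 2.7e-04). DNAJB4, a cytosolic relative of DNAJB1, was higher at 24 h (0.50 ± 0.11, adjusted p = 0.0019), with 6.26, 6.07, 6.68 and 6.63 untreated, 6.65, 6.54, 6.93, 6.81 and 6.82 at 8 h, and 6.99, 6.79, 6.88, 6.89 and 7.0 at 24 h. Its 8 h call (0.34 ± 0.11, adjusted p = 0.046) was lost without any 1 of the 5 Dex 24 h arrays (0.051 to 0.057), of Dex 8 h replicates 3 to 5 (0.089 to 0.11) and of Untreated replicates 1 and 2 (0.14 and 0.18), and within days 2 to 4 (0.20, adjusted p = 0.067). DNAJB6, a suppressor of protein aggregation named after its values were seen, was the fifth (0.35 ± 0.12, adjusted p = 0.026). The DNAJB6 call was lost without Dex 24 h replicate 4 (0.052) or 5 (0.056), without Untreated replicate 1 (0.11) or 2 (0.10), and within days 2 to 4 (0.15, adjusted p = 0.19). It rests on 1 probe set, because those annotated with both DNAJB6 and TMEM135 were left out.

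Of the 17 class C J proteins, which share little beyond the J domain, 5 were lower and 2 higher at 24 h. These are 29.4% and 11.8% of them, beside 20.9% and 19.5% of all genes. DNAJC9 carries new histones H3 and H4 as well as activating HSP70. It had 10.56, 10.58, 10.60 and 10.63 untreated, 10.62, 10.64, 10.54, 10.44 and 10.51 at 8 h, and 9.23, 9.18, 9.37, 9.17 and 9.34 at 24 h. Its 8 h arrays overlapped the untreated ones (log2 fold change -0.04 ± 0.06, adjusted p = 0.74) and the 24 h arrays lay more than 1 log2 unit below both (-1.33 ± 0.06 against untreated, adjusted p = 4.8e-11, and -1.29 ± 0.06 against 8 h, adjusted p = 1.2e-10). The other 4 lower ones were DNAJC11 and, named after their values were seen, DNAJC2, the splicing-associated DNAJC8 and DNAJC12, which helps fold aromatic amino acid hydroxylases, with log2 fold changes between -0.67 and -0.30.

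DNAJC28 was higher at 24 h, with 3.68, 3.68, 3.20 and 3.57 untreated, 3.49, 3.49, 3.83, 3.76 and 3.73 at 8 h, and 4.02, 4.07, 4.21, 4.13 and 4.25 at 24 h. It was below the median of every array, and its 24 h arrays lay above all others (0.60 ± 0.10 against untreated, adjusted p = 1.3e-04). Its 8 h difference did not pass over all arrays (0.13 ± 0.10, adjusted p = 0.47), and it was -0.19 within day 1 (adjusted p = 0.088) and 0.39 within days 2 to 4 (adjusted p = 0.021). DNAJC16, a J protein of the ER membrane, had 6.54, 6.57, 6.60 and 6.46 untreated, 6.69, 6.72, 6.70, 6.68 and 6.65 at 8 h, and 7.07, 6.94, 6.90, 6.98 and 6.75 at 24 h. Its groups did not overlap, and the difference passed at 24 h (0.39 ± 0.06, adjusted p = 8.6e-05) but not at 8 h (0.15 ± 0.06, adjusted p = 0.13).

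Small heat shock proteins hold unfolding proteins in oligomers without ATP. Of 6 genes, HSPB7 and HSPB1 were lower at both times, and neither was lower at 24 h than at 8 h. The lower share was 33.3% at each time, beside 20.9% of all genes at 24 h and 11% at 8 h. HSPB7, best known from heart muscle, had 7.17, 7.36, 7.42 and 7.08 untreated, 5.93, 5.41, 6.09, 6.17 and 6.19 at 8 h, and 6.26, 6.87, 6.15, 6.16 and 6.12 at 24 h. Dex 24 h replicate 2 stood above the other 24 h arrays, and all dexamethasone arrays were below all untreated ones. Its log2 fold change was -1.30 ± 0.17 at 8 h (adjusted p = 2.9e-05) and -0.95 ± 0.17 at 24 h (adjusted p = 1.9e-04), with 0.35 ± 0.16 for 24 h against 8 h (adjusted p = 0.12). HSPB1 (HSP27) had 11.03, 11.07, 11.62 and 11.15 untreated, 10.68, 10.79, 10.46, 10.57 and 10.58 at 8 h, and 10.94, 11.06, 10.77, 10.68 and 10.72 at 24 h. Its 8 h arrays lay below all untreated arrays (-0.60 ± 0.11, adjusted p = 0.0012), and at 24 h replicate 2 lay within the untreated range and the others below it (-0.38 ± 0.11, adjusted p = 0.013, and -0.05, adjusted p = 0.70, within day 1). HSPB2 and HSPB3 did not pass (0.13 ± 0.12 and -0.11 ± 0.09 at 24 h).

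Of the 7 exchange factors, 4 were lower and 1 higher at 24 h, which is 57.1% and 14.3% beside 20.9% and 19.5% of all genes. BAG1 releases ADP from HSP70 and also binds BCL2 and steroid receptors. Its values were 9.32, 9.42, 9.59 and 9.84 untreated, 9.06, 9.0, 9.20, 9.29 and 9.29 at 8 h, and 8.79, 8.90, 9.08, 9.14 and 9.14 at 24 h. Untreated arrays were above all others (log2 fold change -0.53 ± 0.11 at 24 h, adjusted p = 6.3e-04), and the 8 h call (-0.37 ± 0.11, adjusted p = 0.020) was lost without Untreated replicate 4 (-0.27, adjusted p = 0.073). BAG2, which inhibits the ubiquitin ligase CHIP, had 9.55, 9.53, 9.64 and 9.59 untreated, 9.53, 9.69, 9.04, 9.16 and 9.34 at 8 h, and 9.05, 9.07, 8.99, 8.78 and 8.82 at 24 h (-0.63 ± 0.11 against untreated, adjusted p = 1.9e-04). HSPBP1 was at -0.53 ± 0.11 (adjusted p = 7.2e-04), and BAG4, named after its values were seen, at -0.31 ± 0.10 (adjusted p = 0.024). The BAG4 call was lost without Dex 24 h replicate 1 (0.051) or 4 (0.057) and without Untreated replicate 3 (0.063) or 4 (0.073).

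BAG3 steers clients to autophagy and belongs to the heat shock response. It had 4.37, 4.24, 4.44 and 4.27 untreated, 4.83, 4.51, 4.76, 4.77 and 4.52 at 8 h, and 4.80, 4.61, 4.84, 4.73 and 4.84 at 24 h, all below the array medians. Every dexamethasone array lay above every untreated one (0.43 ± 0.08 at 24 h, adjusted p = 3.0e-04, and 0.35 ± 0.08 at 8 h, adjusted p = 0.0050), and within day 1 the 8 h difference of 0.37 did not pass (adjusted p = 0.078).

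**Figure D4:**
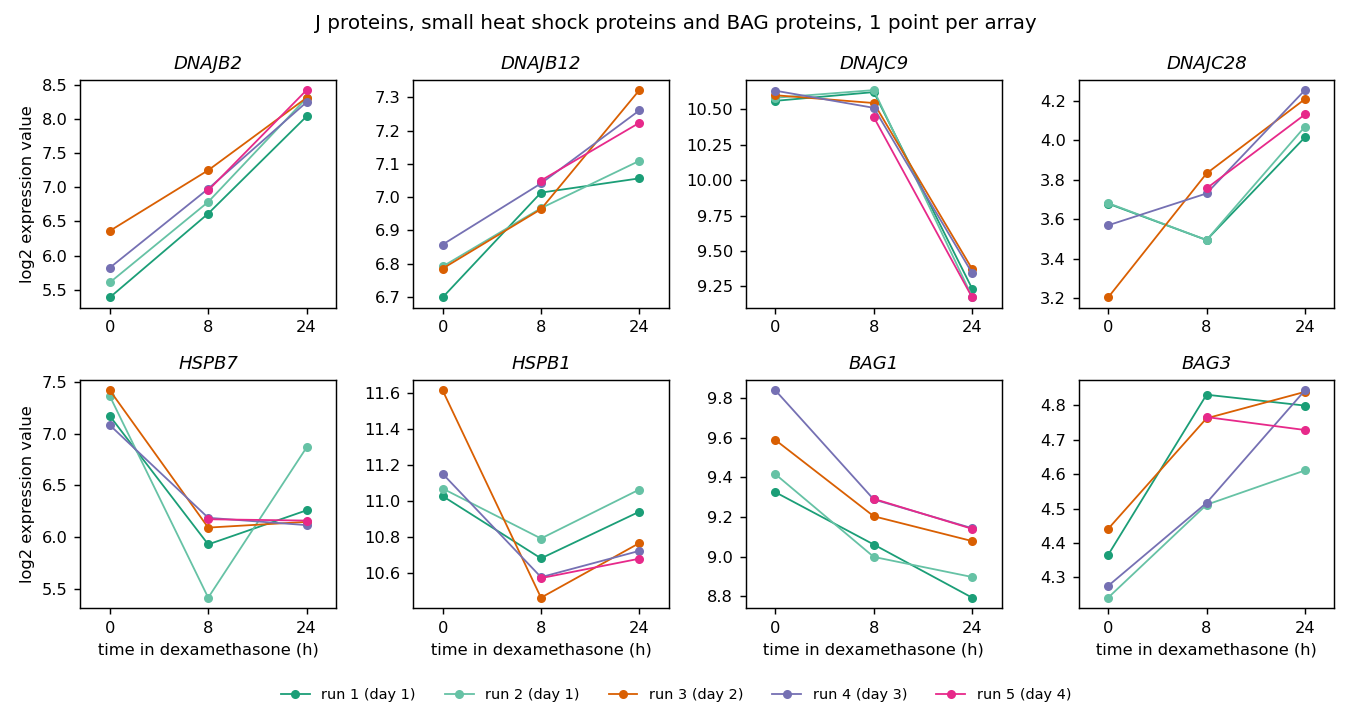
Log2 expression value of J proteins, small heat shock proteins and BAG proteins at 0, 8 and 24 h of dexamethasone, 1 point per array, joined within a run. DNAJB2 climbs in every run, DNAJC9 falls only after 8 h, and HSPB7 is lowest at 8 h in runs 1 to 3.

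HSPH1, DNAJB1, DNAJA1 and HSPA4 went opposite ways at 8 h within day 1 and within days 2 to 4, while BAG3 and HSPB1 did not. At 8 h BAG3 lay above untreated cells in 4 of 4 runs, and HSPB1 lay below them in all 4. HSPH1 (HSP110, an exchange factor of HSP70) had 10.26, 10.28, 11.46 and 11.38 untreated, 11.19, 11.12, 10.75, 10.85 and 11.14 at 8 h, and 10.48, 10.37, 10.59, 10.22 and 10.55 at 24 h. Untreated arrays were the lowest of their day on day 1 and the highest on days 2 and 3, more than 1 log2 unit apart, while the 24 h arrays of all days lay together. HSPH1 at 8 h was therefore 0.88 above untreated cells on the log2 scale within day 1 and -0.51 from them within days 2 to 4, and the difference between the days passed a test in 1 limma model over all genes (adjusted p = 0.0013). DNAJB1, the main HSP40, was at 0.79 within day 1 and at -0.41 afterwards (adjusted p of the difference = 6.9e-04). DNAJA1 was at 0.42 and -0.41 (0.0010). HSPA4, an HSP110 relative named after its values were seen, was at 0.35 and -0.29 (0.0049).

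Over all arrays together none of DNAJB1, DNAJA1 and HSPA4 passed in any comparison, and HSPH1 passed only for 24 h against 8 h (-0.57 ± 0.20, adjusted p = 0.049), a call lost without any 1 of the Dex 24 h arrays (0.061 to 0.11) or of Dex 8 h replicates 1, 2, 4 and 5 (0.058 to 0.11). This test of days was added after the data had been seen. In all, 9 of 67 chaperones differed between the days in their 8 h change (5.02% of all genes did), 4 in their 24 h change (1.28%), and 0 in the change between 8 and 24 h (0.0836%), where the untreated arrays have no part. At an unadjusted p below 0.05, that last comparison had 4 chaperones and 11% of all genes (limma). HSPA9 gave -0.72 within day 1 and -0.61 within days 2 to 4 at 8 h, and -1.61 and -1.37 at 24 h (adjusted p of the differences 0.53 and 0.22). HSPE1 gave -0.03 and -0.69 at 8 h (0.018) and -0.92 and -1.63 at 24 h (0.031). HSPD1 was at -0.17 within day 1, where the 8 h difference did not pass (adjusted p = 0.19), and at -0.53 within days 2 to 4.

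DNAJA1 is shown for its promoter because it is among the 3 chaperones, with DNAJB6 and HSPA6, whose window holds a heat shock element of 3 units, which is GAANNTTC or TTCNNGAA with a further inverted unit 2 bases on, searched on both strands. This is 5.08% of the 59 windows and 0.487% of all windows. The window is chr9:33025023-33025322 on the plus strand of GRCh38.p14, from RefSeq, and the capitals mark the element, whose first base is base 4 of the transcript.
DNAJA1: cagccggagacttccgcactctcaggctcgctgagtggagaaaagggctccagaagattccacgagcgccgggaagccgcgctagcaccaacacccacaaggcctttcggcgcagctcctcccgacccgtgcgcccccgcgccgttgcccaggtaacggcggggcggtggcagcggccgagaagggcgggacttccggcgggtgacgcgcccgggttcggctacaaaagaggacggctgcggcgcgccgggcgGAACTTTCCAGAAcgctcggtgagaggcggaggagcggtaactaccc
Elements of 2 units, which the longer ones contain, were in 8 windows as GAANNTTC (13.6%, beside 6.87% of all) and in 9 as TTCNNGAA (15.3%, beside 7.84%), each counted on both strands. The windows of HSPH1 and DNAJB1 hold neither. HSF1 itself, the factor that reads these elements, did not pass in the comparison of 24 h with untreated cells (-0.19 ± 0.12, adjusted p = 0.25), although it did when the fit blocked on the run (-0.16, adjusted p = 0.032). HSBP1, which binds heat shock factor trimers, and HSF4 did not pass either (-0.17 ± 0.13 and 0.06 ± 0.07).

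**Figure D5:**
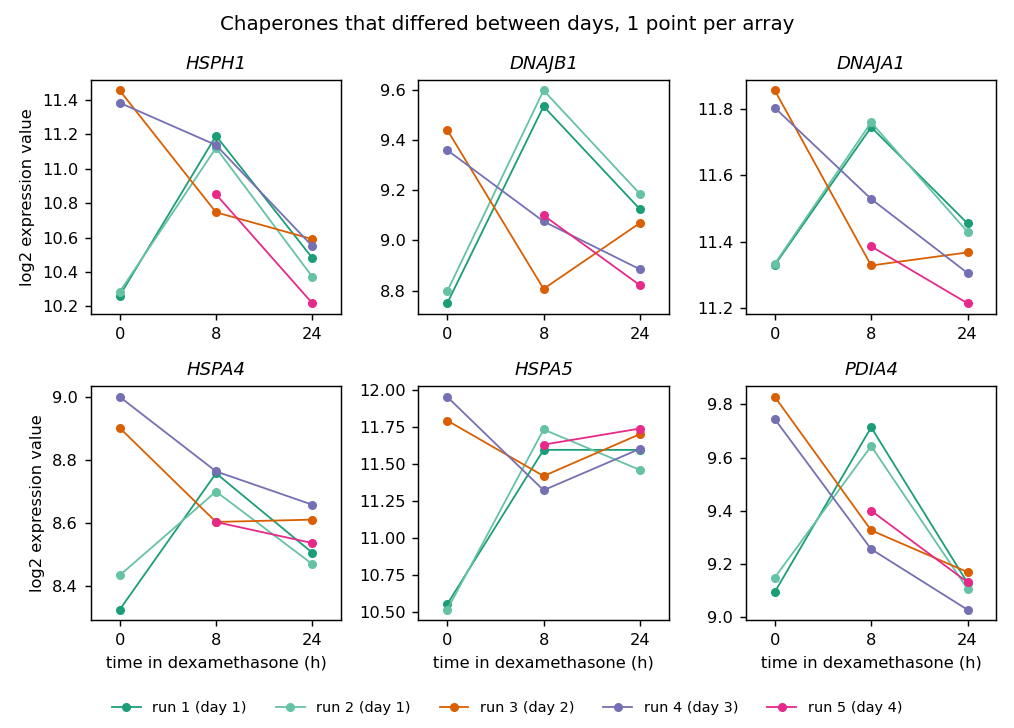
Log2 expression value of HSPH1, DNAJB1, DNAJA1 and HSPA4 and of the ER chaperones HSPA5 and PDIA4 at 0, 8 and 24 h of dexamethasone, 1 point per array, joined within a run. Untreated arrays of day 1 (green) lie at the bottom of each panel or close to it and those of days 2 and 3 at or near the top, so that the lines of day 1 climb to 8 h and those of days 2 and 3 descend.

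The HSP90 system next to these chaperones fell in part. Of 11 genes, 6 were lower and 2 higher at 24 h, which is 54.5% and 18.2% beside 20.9% and 19.5% of all genes. HSP90AB1, the constant cytosolic HSP90, was lower at 24 h (-0.76 ± 0.07, adjusted p = 8.0e-08), with 11.97, 11.94, 12.20 and 12.19 untreated, 11.86, 11.83, 11.80, 11.75 and 11.92 at 8 h, and 11.36, 11.27, 11.27, 11.32 and 11.34 at 24 h. Its groups did not overlap, yet the 8 h call (-0.24 ± 0.07, adjusted p = 0.016) was lost without Untreated replicate 3 (0.060) or 4 (0.057), within day 1 (-0.11, adjusted p = 0.35) and with its brightest probe set alone (-0.20, adjusted p = 0.15). HSP90AA1, the other cytosolic HSP90, named after its values were seen, did not pass in any comparison. It averaged 13.37 untreated, and its log2 fold change at 24 h was -0.17 ± 0.09 (adjusted p = 0.13). The immunophilins on HSP90 parted. FKBP4 was lower at 24 h (-0.82 ± 0.08, adjusted p = 1.9e-07) and FKBP5, a known receptor target, higher (2.79 ± 0.23, adjusted p = 4.1e-08). In the list of 10 further helpers of HSP70 and CCT, 3 were lower and 1 higher at 24 h, among them GRPEL1, VBP1 and SGTA (-0.28 ± 0.08, adjusted p = 0.0097, and -0.08 with adjusted p = 0.42 within day 1). The shares in this list were 30% lower and 10% higher, beside 20.9% and 19.5% of all genes.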

How the data were processed

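RNA of 14 samples of RS4;11 cells was hybridised to Affymetrix arrays, and the authors deposited log2 expression values made with RMA (background correction, quantile normalization and summary of probes into probe sets). RMA shrinks changes of dim probe sets and hides a shift shared by all genes. Tool versions are not given in the sources used here. Of 22277 probe sets, 19070 name 1 gene, 1043 name several and 2164 are not listed in the platform annotation, and 19058 were matched by Entrez identifier. Probe sets of a gene were averaged (40 chaperone genes have 1, 27 have 2 to 4), giving 11963 genes. All columns belong to the 14 arrays, and no columns of the authors' own comparisons were present.

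The 3 comparisons (Dex 24 h against Untreated, Dex 8 h against Untreated, Dex 24 h against Dex 8 h) were tested in 1 limma model over all arrays (limma 3.58.1, R 4.3.3), with Benjamini-Hochberg adjustment over all genes, a threshold of 0.05 and two-sided tests. Errors of fold changes are standard errors of that model. The filter on variance in the study's methods was used as an alternative only. Other alternatives were 2 blocks by run or title number, the day as a block, other normalizations, filters and thresholds, and leaving out each array. The test of the difference between day 1 and days 2 to 4 was added after the data had been seen. The date in the descriptions is not explained there.

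Same-run arrays deviated together from their group means (13 pairs, r between 0.30 and 0.54), against r between -0.47 and 0.47 for 52 pairs of other runs. The pairing by run comes from the sample descriptions.

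The members and gene lists were chosen with earlier results of these data known. Genes were named by a rule: all CCT subunits, HSPA9, HSPD1, HSPE1, members changed by 2-fold or more and passing, up to 4 members of each role and 3 genes of each related list with the smallest adjusted p at 24 h, and HSPH1, DNAJB1, DNAJA1, BAG1 and BAG3. Others are marked as named after their values were seen, apart from those given next. CCT8L2, CLPX, YME1L1, HSPA6, CALR, HYOU1, SIL1 and DNAJB9 were also named outside the rule and carry no mark. In simulated data for Dex 24 h against Untreated over 11963 genes, 99 of 100 changes of 1 log2 unit and 76 of 100 of 0.5 were recovered, with 10 false calls. The simulated arrays varied independently, without deviations shared by a run or day, so these rates need not hold for the real arrays. The number of arrays limits the precision. Promoter windows (250 bases before to 50 after the start, the first listed per gene) are RefSeq's for GRCh38.p14. Scripts used Python 3.11.15, pandas 2.3.3 and matplotlib 3.10.9.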

Additional observations from a re-analysis of the deposited data

Results flagged for a closer look

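In 168 groups of 4 or 5 arrays, 3 had an array far from the others, and chance alone sets about 1 in 20 such groups apart. DNAJA4, a cytosolic J protein, stood at 6.06 in Dex 8 h replicate 2 and between 5.65 and 5.75 in the other 8 h arrays. HSPB7 stood at 6.87 in Dex 24 h replicate 2 and between 6.12 and 6.26 in the others. FKBP4 stood at 5.61 in Dex 24 h replicate 4 and between 5.33 and 5.39 in the others.

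The change from untreated cells differed between days 2 to 4 and day 1 in a test of the difference itself (limma). For Dex 8 h against Untreated, the log2 fold change within days 2 to 4 minus that within day 1 was -1.54 for HSPA5, -1.39 for HSPH1, -1.20 for DNAJB1, -1.01 for PDIA4, -0.83 for DNAJA1, -0.72 for FKBP5, -0.66 for HSPE1, -0.64 for HSPA4, -0.57 for GRPEL1, -0.51 for BAG2, -0.50 for CCT6A and -0.45 for CCT5. It was 0.57 for DNAJC28. For Dex 24 h against Untreated it was -1.18 for HSPA5, -1.12 for HSPH1, -0.86 for DNAJB1, -0.71 for HSPE1, -0.67 for PDIA4, -0.64 for DNAJA1 and -0.51 for GRPEL1. For Dex 24 h against Dex 8 h no chaperone passed after adjustment, and 4 of 67 had an unadjusted p below 0.05 (limma). Day 1 holds 2 untreated arrays, and days 2 to 4 hold the other 2. What separates these untreated arrays was not tested.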

How the results depend on the processing

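Apart from the fits within days, whose shares are given above, the share of all genes called under each setting is not given in this section. Such counts show how far the calls depend on the setting, not whether chaperones differ from other genes. The chaperone counts moved by more than 1.5 times as follows. At an adjusted p below 0.01, Dex 8 h against Untreated gave 3 higher and 8 lower, and Dex 24 h against Dex 8 h 3 higher and 5 related genes. With a log2 change of at least 0.5 also required, 3 were higher at 24 h against untreated, 1 was higher and 3 lower at 8 h, and 1 was higher and 8 lower between 8 and 24 h, with 13, 6 and 2 related genes. With the strict variance filter (29 chaperones kept), 5 were higher and 17 lower at 24 h and 3 higher at 8 h. The 8 h comparison gave 10 higher, 8 lower and 20 related genes within day 1, and 26 lower and 21 related genes within days 2 to 4. With the day as a block, Dex 24 h against Dex 8 h gave 8 higher and 20 related genes, and without run 5, 7 related genes.

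Medians over the chaperones became -0.28 (24 h) and -0.14 (8 h) without dim probe sets. They became -0.24 (24 h) and -0.18 (24 h against 8 h) with the variance filter, and -0.59, -0.21 and -0.28 for 24 h, 8 h and 24 h against 8 h with the strict one. They became -0.071 for 24 h against 8 h within days 2 to 4. The CCT median became -0.65 (24 h) and -0.39 (24 h against 8 h) with the strict filter, -0.28 (24 h against 8 h) with the brightest probe set, and -0.33 (8 h) and -0.26 (24 h against 8 h) within days 2 to 4. That of HSP60 and HSP10 became -0.85 (24 h) within day 1 and -0.69 (24 h against 8 h) with the brightest probe set. That of class B became 0.65, 0.37 and 0.28 in the same order with the strict filter, and 0.29 (24 h against 8 h) within day 1. No cause of these moves was tested, and the filters and the fits within days keep fewer genes or arrays.

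With the run as a replicate block, every chaperone call was kept, and 12 were higher and 31 lower at 24 h. The counts were 7 and 19 at 8 h, and 7 and 26 for 24 h against 8 h, with 20 related genes in that comparison. The share of all genes called in this fit is not given here. Pairing by title number gave 8 higher at 8 h. Against the fit over all arrays, signs turned within day 1 for DNAJB1 at 24 h (0.38) and DNAJA1 at 8 h (0.42), and within days 2 to 4 at 8 h for DNAJB1 (-0.41), HSPH1 (-0.51), HSPA5 (-0.42) and PDIA4 (-0.46). These 6 passed within those days and not over all arrays. In all, 18 values of named genes turned within day 1 and 9 within days 2 to 4, and the others passed in neither. Among them within day 1 were HSPH1 (0.15) and DNAJA1 (0.11) at 24 h and BAG2 (0.07), CCT6A (0.06) and DNAJC28 (-0.19) at 8 h. HSPA4, not among these genes, also turned at 8 h within days 2 to 4 (-0.29, against 0.02 over all arrays).

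Leaving out 1 array, the counts ranged from 8 to 11 higher and 24 to 28 lower at 24 h, 3 to 6 and 10 to 17 at 8 h, and 3 to 5 and 17 to 21 for 24 h against 8 h, where related genes ranged from 7 (without Dex 24 h replicate 3 or Dex 8 h replicate 2) to 14, the CCT median from -0.34 to -0.27 and that of HSP60 and HSP10 from -0.80 to -0.69. Of 91 results that passed for named genes, 66 passed in the same direction under every setting in which the gene was tested. A filter that removed a gene was not counted against it. Stricter thresholds and single probe sets did not enter this count.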

Other observations

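Of 12 listed ER chaperones, most of them outside the rule by name, 1 was lower and 0 were higher at 24 h against untreated cells (limma). These are 8.33% and 0% of them, beside 20.9% and 19.5% of all genes. The lower one was PDIA6, a disulfide isomerase, with 11.97, 11.98, 12.41 and 12.42 in untreated cells, 11.82, 11.74, 12.04, 12.01 and 11.95 after 8 h, and 11.59, 11.56, 11.80, 11.73 and 11.71 after 24 h. Its log2 fold change at 24 h was -0.52 ± 0.10 (adjusted p = 5.9e-04), and the call held under every alternative in which it was tested as a gene. HSPA5 (BiP), the HSP70 of the ER, did not pass (0.42 ± 0.24, adjusted p = 0.21). Its untreated values were 10.56 and 10.52 on day 1 and 11.79 and 11.95 on days 2 and 3, so the spread among untreated arrays was larger than the mean difference between the groups. At 8 h no listed ER chaperone passed over all arrays, and some went opposite ways between days. In runs 1 to 4 CALR differed by 0.95, 0.96, -0.42 and -0.50 on the log2 scale. HYOU1 differed by 0.81, 0.80, -0.36 and -0.60. PDIA6 and DNAJB9 were lower and SIL1 was higher in each of these runs. DNAJB9 was higher at 24 h than at 8 h (0.38 ± 0.14, adjusted p = 0.049, limma).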
